A study of Rattus norvegicus with 21 samples.

Results

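The microRNAs of rat insulinoma cells exposed to inorganic arsenic (iAs) were compared with those of untreated cells. The cells were INS-1 832/13, an insulin-secreting clonal line derived from a rat beta cell tumour. A tissue entry in the labels reads liver, which is not the source of that line. Cells were seeded in 12-well plates, left for 24 h, and then kept for 24 h with 1 µM iAs, 5 µM cadmium (Cd), 25 µM manganese (Mn) or no added metal, per the labels' protocols. RNA was isolated with a Norgen column kit, and small RNA libraries were made with the TriLink CleanTag kit. Of the 12 small RNA libraries, 3 came from iAs cells and 3 from untreated cells, and the 3 Cd and 3 Mn libraries served to estimate the spread and for a side by side view. The whole series holds 21 libraries, the others being mRNA libraries of untreated and iAs cells. Whether the 3 libraries of a treatment were separate cultures is not stated in the labels, and the p-values measure only the spread among these libraries, which may be technical. The rule kept each row of the deposited microRNA table with a mean of at least 10 RPMMM over the 12 libraries. RPMMM is the share of a library's microRNA reads, scaled to 1000000. This left 523 of 1186 rows, and each row is 1 mature microRNA from 1 locus, or a form of it whose 5′ end lies some bases away from the annotated start. Of the 523 rows, 244 were such shifted forms, written here with the shift in parentheses, so that miR-409a-3p (-1) begins 1 base upstream and miR-29a-3p (+6) begins 6 bases downstream of the annotated end. The files do not define the sign, and this reading is the usual one.

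MicroRNAs are short RNAs cut from hairpin precursors by the nucleases Drosha and Dicer. An Argonaute protein takes up an arm of the hairpin, called 5p or 3p, and pairs it with messenger RNAs mainly through the seed, the bases just after its 5′ end. Many microRNA genes lie in clusters that are transcribed together, and a shifted 5′ end gives a microRNA another seed. In beta cells, miR-375 and miR-7 are abundant and are known to restrain insulin secretion or growth. The imprinted Dlk1-Dio3 locus, which carries a large cluster of maternally expressed microRNAs next to Meg3, is active in beta cells and neurons.

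The sequences below carry the main differences: the 5 rows of the Dlk1-Dio3 locus, the other falls described first, the rises of miR-146a-5p and of the miR-29b 5p forms, and both arms of let-7e. They are from RefSeq (assembly GRCr8), where 477 of the 523 rows and 42 of the 44 rows called below were matched. miR-320-3p (-1) and miR-29b-3-5p (-1) were not matched. Sequences run 5′ to 3′, and capitals mark the seed, bases 2 to 8 of the form counted. A shifted form was extended or shortened at its 5′ end from the RefSeq hairpin and is shown to the RefSeq 3′ end.
miR-409a-3p (-1): gAAUGUUGcucggugaacccc
miR-410-3p: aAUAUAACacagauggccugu
miR-369-3p: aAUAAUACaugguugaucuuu
miR-541-5p: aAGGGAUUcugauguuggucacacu
miR-382-5p: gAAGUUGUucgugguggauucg
miR-210-3p: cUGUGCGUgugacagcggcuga
miR-708-5p: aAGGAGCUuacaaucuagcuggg
miR-301a-5p: gCUCUGACuuuauugcacuac
miR-378a-3p: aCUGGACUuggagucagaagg
miR-146a-5p: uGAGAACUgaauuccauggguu
miR-29b-1-5p (-5): gCUGGUUUcauauggugguuuagauuu
miR-29b-2-5p (-1): gCUGGUUUcacaugguggcuuag
let-7e-5p: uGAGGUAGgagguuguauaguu
let-7e-3p: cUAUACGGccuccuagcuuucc
The forms miR-29b-1-5p (-5) and miR-29b-2-5p (-1) share the seed CUGGUUU, whereas the annotated miR-29b-1-5p, which reads uUUCAUAUggugguuuagauuu, has another seed. RefSeq places miR-382-5p at chr6:134569956-134569977, miR-541-5p at chr6:134578434-134578458, miR-409a-3p at chr6:134579231-134579250, miR-369-3p at chr6:134579507-134579527 and miR-410-3p at chr6:134579808-134579828, all on the plus strand of GRCr8. These 5 precursors lie within 10 kb of their nearest neighbour among them. miR-146a-5p lies at chr10:28350053-28350074 (minus strand), miR-210-3p at chr1:205755946-205755967 (minus), miR-708-5p at chr1:160011168-160011190 (plus) and miR-378a-3p at chr18:57128925-57128945 (minus).

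Judged from the spacing of low values, a library held about 5906670 to 7911390 microRNA reads, and the lowest value listed above 0 corresponds to some 10 reads. Between 935 and 1021 rows were above 0 in a library, and miR-7a-1-5p took 10.1% to 11.8% of the reads. The summed rows of miR-375, miR-7, miR-9a and miR-184, used here as beta cell and neuroendocrine markers, held 283120 to 301652 RPMMM in untreated and 278176 to 296516 in iAs libraries, with 0 of 31 tested rows called by limma and 6 at an unadjusted p under 0.05, against 153 of all 523 rows tested (29.3%). Without iAs replicate 2 or untreated replicate 3, 3 or 5 of the 31 were called lower, and without untreated replicate 2 or after median-of-ratios rescaling 1 was called higher. Of the marker rows at a mean of at least 50 RPMMM, 3 of 18 were called lower, and of the unshifted ones 3 of 9 were called lower and 1 higher. The hepatocyte marker miR-122-5p was 4.90 to 6.79 RPMMM in untreated and 6.07 to 12.6 in iAs libraries, under the 10 RPMMM mean that a tested row needed. Rows of blood and immune microRNAs summed to 2.75 to 4.12 RPMMM in untreated and 1.97 to 2.86 in iAs libraries, and miR-144, miR-150, miR-223, miR-451 and miR-486 were absent or at 0. The endothelial marker miR-126 summed to 184 to 202 RPMMM in untreated and 226 to 232 in iAs libraries, with 0 of 3 tested rows called by limma and 2 at an unadjusted p under 0.05. After median-of-ratios rescaling 2 of the 3 rows were called higher, and 1 was without untreated replicate 1 or Mn replicate 3, among unshifted rows or at a mean of at least 50 RPMMM. Its part in the differences below was not tested. Striated muscle, acinar and mesenchymal markers summed to at most 110, 15.8 and 3.60 RPMMM in these 6 libraries, with 2 rows tested, 0 called by limma and 0 at an unadjusted p under 0.05. RPMMM is a share of the microRNA reads of a library, so fewer cells holding a microRNA, fewer copies per cell and more of the other microRNAs cannot be told apart.

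In the separate mRNA libraries, Hmox1, a gene known to be induced by arsenite, was at 12135 to 16234 normalized counts in the 4 libraries labelled untreated and at 1175 to 2337 in the 5 labelled iAs. This is opposite to its known response, and whether the mRNA labels are right was not tested. The labels do not say whether the mRNA and small RNA libraries share cultures, and the small RNA table holds no gene that checks its own labels. Every direction below rests on the labels as given.

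Few microRNA rows were called between iAs and untreated cells, and most of the called differences were small. At an unadjusted p under 0.05 in limma there were 153 of 523 rows (29.3%), so a row not called is not thereby unchanged. In limma's moderated test on log2(RPMMM + 1), adjusted over all 523 rows by the Benjamini-Hochberg method, 44 rows were called at an adjusted p under 0.05, which is 8.41% of the rows. Of these, 14 were higher in iAs cells (2.68%) and 30 lower (5.74%). Only 10 of the 44 differed by more than 1.5-fold, 3 higher and 7 lower, and 389 of the 523 rows (74.4%) differed by less than 1.2-fold. The median difference of all rows was -0.02 on the log2 scale, with 246 rows above 0 and 277 below. In all 44 called rows the 3 iAs and the 3 untreated libraries did not overlap, against 29.3% of all rows. The 44 rows stand for 38 precursors and 42 distinct sets of values, since miR-24-1-3p and miR-24-2-3p share a mature sequence and values, as do the miR-29b-2-5p (-1) and miR-29b-3-5p (-1) rows. After median-of-ratios rescaling the calls split into 24 higher and 24 lower.

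**Figure D1:**
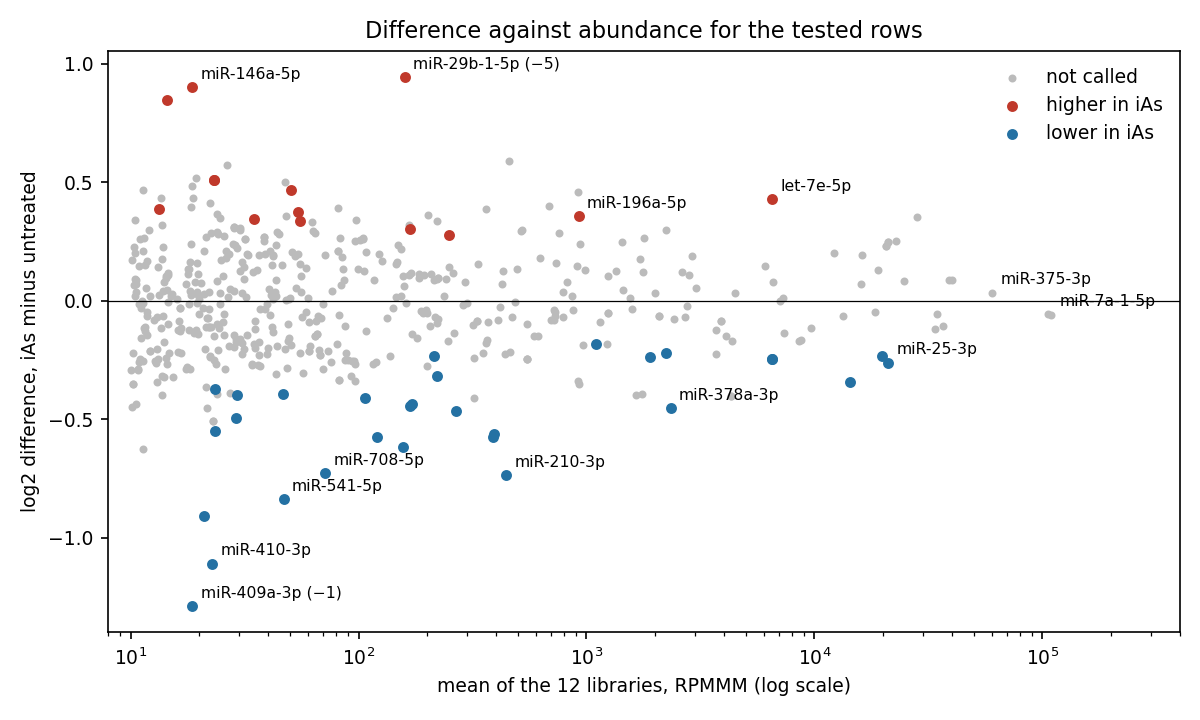
Difference between iAs and untreated cells for the 523 tested rows, plotted as the log2 difference (vertical) against the mean of the 12 libraries in RPMMM (horizontal, log scale). Red points are the 14 rows called higher in iAs and blue points the 30 called lower. The largest differences, such as that of miR-409a-3p (-1), lie among rows of low level, whereas miR-25-3p and other abundant rows were called at small differences.

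Precision followed the level. The median standard error was 0.13 for the 263 rows with a mean under 50 RPMMM, 0.10 for the 156 rows from 50 to 500 and 0.07 for the 104 rows of 500 and more. The smallest called differences in these 3 classes were 0.35, 0.23 and 0.18, so smaller differences of scarce rows were not called with 3 libraries a group. The rows called lower held 7.71% to 8.14% of the reads of untreated libraries and 6.35% to 6.71% of those of iAs libraries, and the rows called higher 0.599% to 0.783% and 0.817% to 0.964%. The count of calls depended on single libraries: leaving out untreated replicate 2 or 3 gave 27 or 80 calls, leaving out iAs replicate 1, 2 or 3 gave 24, 81 or 21, and leaving out Cd replicate 3 gave 28. Of the 44 rows, 19 were called in every setting that gave them a value, 3 higher and 16 lower, and 0 changed sign in any. The other 25 calls were lost in at least 1 setting, and 18 of them in at least 6.

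The 4 largest falls were in the Dlk1-Dio3 cluster, where each of the 5 tested rows fell, against 5.74% of all rows. miR-409a-3p (-1) was 18.7, 20.4 and 25.2 RPMMM in untreated replicates 1, 2 and 3 and 10.4, 7.84 and 6.46 in iAs replicates 1, 2 and 3 (log2 difference -1.29, with a standard error, SE, of 0.16, limma adjusted p = 3.1e-04). Each iAs library lay below the lowest untreated library. miR-410-3p went from 32.4, 27.1 and 25.1 to 13.1, 15.9 and 9.19 RPMMM (-1.11, SE 0.16, limma adjusted p = 6.3e-04), again with no overlap. miR-369-3p was 30.7, 28.4 and 20.5 RPMMM in untreated and 14.3, 12.1 and 14.0 in iAs libraries (-0.91, SE 0.16, limma adjusted p = 0.00212), and the lowest untreated library, replicate 3, was the nearest to the iAs range. miR-541-5p was at 49.2, 51.5 and 52.96 against 27.8, 28.6 and 28.2 RPMMM (-0.84, SE 0.11, limma adjusted p = 3.1e-04). The 3 iAs libraries of this row differed by less than 1 RPMMM. miR-382-5p fell least, from 22.1, 22.6 and 23.6 to 17.0, 14.4 and 14.5 RPMMM (-0.55, SE 0.11, limma adjusted p = 0.00775).

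The table held 33 rows of this locus, of which 28 stayed under the 10 RPMMM mean and were not tested. Their sum was 56.8, 69.2 and 70.6 RPMMM in the 3 untreated libraries and 36.5, 35.3 and 25.3 in the 3 iAs libraries. The groups do not overlap, and 24 of the 25 low rows above 0 had a lower mean in iAs cells. Many of these rows were at 0 in some libraries and close to the lowest listed value in others. Some are other forms of the tested precursors, so the count is not separate from the tested rows. The same share over all rows under the filter is not given here. With the tested rows, the locus summed to 210, 219 and 218 RPMMM in untreated, 119, 114 and 97.7 in iAs, 211, 215 and 212 in Cd and 236, 237 and 231 in Mn libraries. The iAs libraries were thus the lowest 3 of the 12. Among 6 low forms of the tested precursors, miR-382-3p and miR-409a-3p (-2) did not overlap between the groups. No overlap was also seen in 29.3% of all tested rows, so these forms are given for their values only. miR-382-3p was 8.07, 6.25 and 6.35 RPMMM in untreated and 3.53, 4.05 and 2.81 in iAs libraries, and miR-409a-3p (-2) was 7.12, 12.4 and 9.60 against 4.54, 3.92 and 3.51. miR-369-3p (-1) overlapped, at 3.80, 2.79 and 2.26 against 2.19, 3.29 and 0 RPMMM, and the other 3 were at 0 in at least 1 untreated library. The form of miR-409a-3p at its annotated start was at most 3.53 RPMMM. All 5 tested rows stayed called whichever library was left out, with a median between -1.08 and -0.85.

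**Figure D2:**
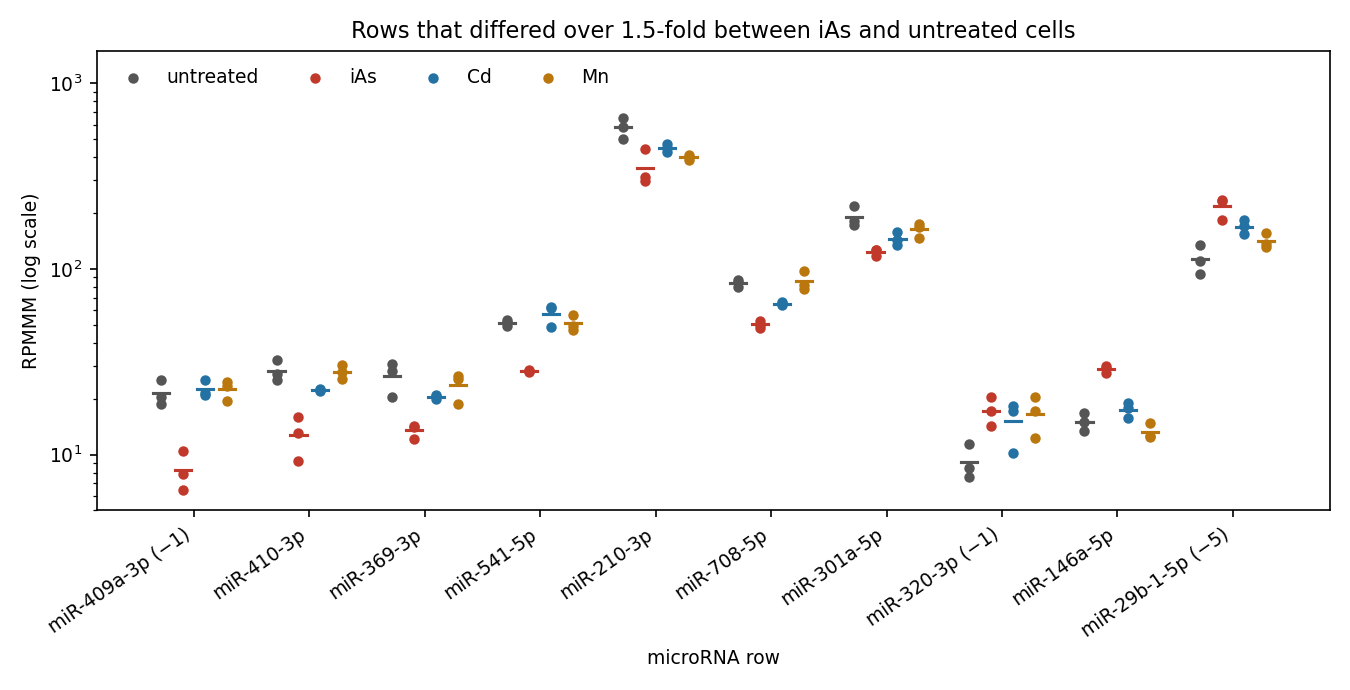
RPMMM (vertical, log scale) of the 10 rows that differed by more than 1.5-fold between iAs and untreated cells, for each library of the 4 groups; points are libraries and bars the group means, and numbers in parentheses are shifts of the 5′ end. For each row the 3 red iAs points lie apart from the 3 grey untreated points. For the Dlk1-Dio3 rows miR-409a-3p (-1) and miR-541-5p the Cd and Mn points lie with the untreated ones. The Cd points of miR-410-3p lie below each untreated point, and those of miR-369-3p near the lowest untreated point.

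Outside that locus, 3 microRNAs fell by more than 1.5-fold. miR-210-3p, the microRNA most strongly induced by hypoxia-inducible factors, was 654, 585 and 501 RPMMM in untreated and 298, 441 and 314 in iAs libraries (-0.74, SE 0.13, limma adjusted p = 0.00239). iAs replicate 2 was the highest of its group and still below each untreated library. The other arm, miR-210-5p, was -0.20 (SE 0.12) and was not called. miR-708-5p, which lies in an intron of Tenm4 and is known as a microRNA of endoplasmic reticulum stress, was 86.9, 79.8 and 84.7 against 49.9, 48.1 and 52.7 RPMMM (-0.73, SE 0.09, limma adjusted p = 3.1e-04). Its other arm was under the filter, at 9.81, 8.52 and 10.6 RPMMM in untreated and 6.61, 4.93 and 5.61 in iAs libraries, with no overlap either. miR-28-5p, which has the same seed as miR-708-5p (AGGAGCU), was 260.4, 218 and 237 against 268, 256 and 263 RPMMM (0.14, SE 0.07) and was not called. miR-301a-5p fell from 219, 173 and 181 to 118, 127 and 126 RPMMM (-0.62, SE 0.10, limma adjusted p = 0.00155).

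Further falls were smaller and held up as well under the alternatives. miR-378a-3p, which lies in an intron of Ppargc1b and is tied to mitochondrial metabolism, was 2721, 2670.1 and 2656 RPMMM in untreated and 1973, 1994 and 1910.0 in iAs libraries (-0.45, SE 0.05). Its limma adjusted p of 1.6e-04 was the smallest of the comparison, and both groups were narrow. Its form miR-378a-3p (+1) fell alike, by 0.44 in log2, whereas miR-378a-5p was -0.21 and not called. miR-582-3p and its form miR-582-3p (-1) fell by 0.58 and 0.44 in log2. miR-218a, whose copies sit in introns of Slit2 and Slit3 and give the same mature arm, fell by 0.58 (miR-218a-2-5p) and 0.56 (miR-218a-1-5p), 2 rows of nearly equal values. miR-27b-5p was 256, 273 and 293 against 207, 192 and 195.2 RPMMM (-0.47, SE 0.07, limma adjusted p = 6.3e-04), with no overlap.

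The rises were led by miR-146a-5p and by 5p forms of miR-29b. miR-146a-5p, induced through NF-kB and known to target Irak1 and Traf6, was 16.8, 13.3 and 15.0 RPMMM in untreated and 29.3, 30.0 and 27.5 in iAs libraries (0.90, SE 0.12, limma adjusted p = 3.1e-04). The lowest iAs library lay well above the highest untreated one. miR-146b-5p, which has the same seed (GAGAACU) but comes from another gene, was 2646, 2636 and 2579 against 2828, 2836 and 2878 RPMMM (0.12, SE 0.05, adjusted p = 0.125 in limma) and was not called. Of the 14 tested rows of NF-kB and inflammation microRNAs, miR-146a-5p alone was called, against 8.41% of all rows, and the list's median was 0.03 against -0.02 for all rows. At an unadjusted p under 0.05 in limma the list had 9 of 14 rows, against 29.3% of all rows. Without untreated replicate 3 the same list had 4 rows higher and 3 lower, and without iAs replicate 2 it had 3 and 3. Among its 8 unshifted rows 1 was higher and 3 were lower. At a mean of at least 50 RPMMM 0 of 8 were higher and 3 lower, and after median-of-ratios rescaling 2 of 14 were higher.

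miR-29b-1-5p (-5) rose from 93.7, 110.3 and 135 to 234, 185 and 232 RPMMM (0.94, SE 0.13, limma adjusted p = 6.3e-04). The groups do not overlap, and untreated replicate 3 was the nearest to the iAs range. miR-29b-2-5p (-1), the form with the same seed, rose from 17.7, 19.2 and 21.2 to 29.4, 26.5 and 27.9 RPMMM (0.51, SE 0.11, limma adjusted p = 0.0125), a call lost without iAs replicate 1 or 3. The unshifted miR-29b-2-5p was 0.26 (SE 0.12) and was not called. In all, 16 rows of the miR-29 family, whose 3p arms are known to repress collagens and, in beta cells, the lactate transporter Mct1, were tested. All 16 were above 0 with a median of 0.31, against -0.02 for all rows, and 4 were called higher, against 2.68% of all rows. The 16 rows include shifted forms and rows of identical values, so they are not independent. With identical rows counted once 3 of 12 were called, and among unshifted rows 0 of 9. The abundant miR-29a-3p was 2452, 1976 and 2069 RPMMM in untreated and 2380.4, 2966 and 2649 in iAs libraries, groups that overlap (0.30, SE 0.10, adjusted p = 0.068 in limma). Its rare form miR-29a-3p (+6), which starts within the annotated seed, was called (0.39). The family's count of calls was 1 without iAs replicate 1 or 3, 7 without untreated replicate 1 and 6 after median-of-ratios rescaling.

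miR-320-3p (-1) rose from 7.59, 8.43 and 11.4 to 20.4, 14.2 and 17.1 RPMMM (0.85, SE 0.23, limma adjusted p = 0.0403). The call ended without untreated replicate 1 or 2, iAs replicate 1 or 3, Cd replicate 3 or Mn replicate 3. The far more frequent miR-320-3p at its annotated start was 554, 758 and 938 against 1218, 806 and 1046 RPMMM, groups that overlap, and was not called (0.46, SE 0.20). miR-196a-5p, encoded in the Hox clusters, rose from 764, 798 and 849.7 to 1081, 988 and 1023 RPMMM (0.36, SE 0.07, limma adjusted p = 0.00353) and was the only rise besides miR-146a-5p and miR-29b-1-5p (-5) that was called in every setting giving it a value. Smaller rises were those of miR-671 (0.47), miR-330-5p (0.37) and miR-185-5p (0.28), each lost as a call without iAs replicate 1 or 3 or untreated replicate 2.

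Neighbouring microRNAs lay on the same side of 0 in several clusters. A cluster was defined as precursors on 1 strand with gaps of at most 10 kb in GRCr8, and 9 clusters held a called row. Only these 9 were looked at, so each has at least 1 call by that choice. Their shares beside those of all rows are partly set by it and are given as description. The number of clusters without a called row is not given here. The rows of a cluster are arms and shifted forms of few precursors, so counts of rows are not counts of independent members. The miR-106b, miR-93 and miR-25 cluster of chromosome 12 lies in an intron of Mcm7 and is known to restrain the cell cycle inhibitor Cdkn1a. In it 4 of 15 rows fell, against 5.74% of all rows, and 14 of 15 were below 0 (median -0.24), against 277 of 523. The 15 rows are forms of 3 precursors, and 6 of the rows begin at the annotated start. miR-93-5p was 16377, 16431 and 15596 RPMMM in untreated and 11846, 14706 and 11756 in iAs libraries (-0.35, SE 0.08, limma adjusted p = 0.0117). miR-25-3p was 23056, 22808 and 22465 against 19169, 18882 and 18957 RPMMM (-0.26, SE 0.04, limma adjusted p = 0.00115), with narrow groups that do not overlap. miR-106b-3p and miR-25-3p (+1) fell by 0.22 and 0.23 in log2. The count in this cluster was 1 without iAs replicate 1 or 3 or untreated replicate 2, and 2 without Cd replicate 3 or any of the Mn replicates. Over all 26 rows of miR-17-92 and its paralogous clusters, these 4 were the calls, 22 rows were below 0 and the median was -0.23. That count was 7 without iAs replicate 2.

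**Figure D3:**
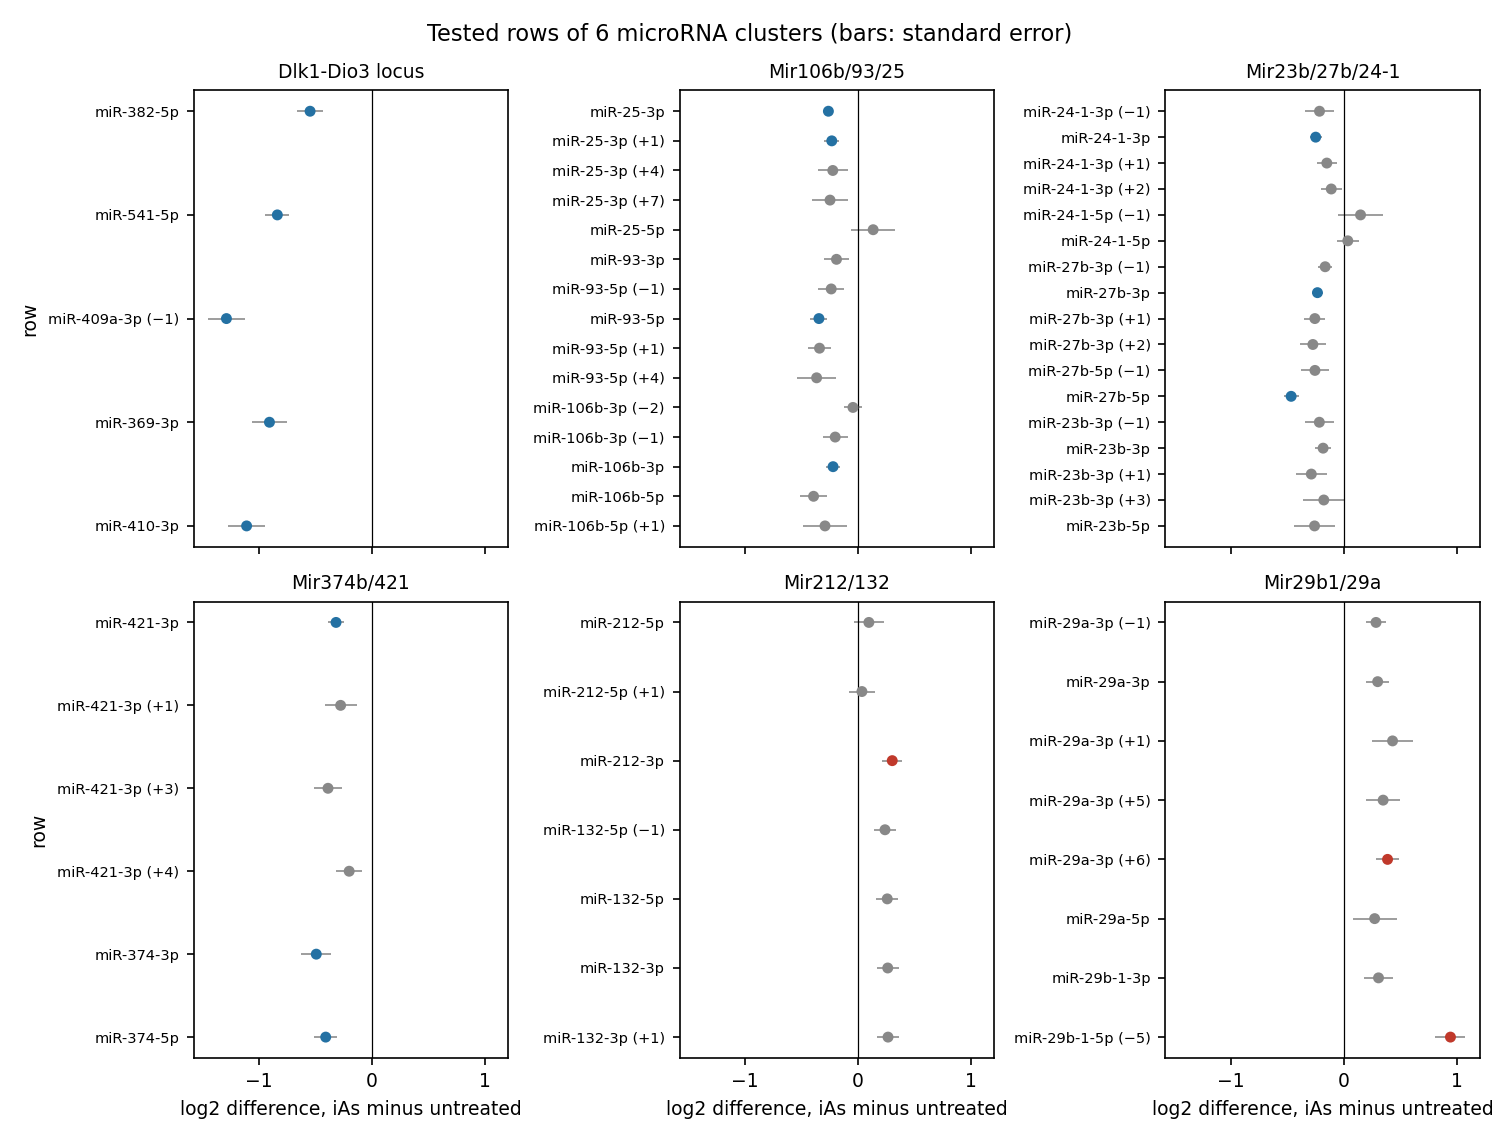
Log2 difference between iAs and untreated cells (horizontal) for each tested row (vertical) of 6 microRNA clusters; bars are the standard error of the fit, blue points rows called lower, red points rows called higher and grey points rows not called. The 5 rows of the Dlk1-Dio3 locus lie between -1.29 and -0.55, 14 of 15 rows of the Mir106b/93/25 cluster lie below 0, and all 8 rows of the Mir29b1/29a cluster lie above 0. The clusters shown were chosen among those that held a called row. Rows of a cluster can be shifted forms of the same precursor and are not independent.

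The miR-23b, miR-27b and miR-24-1 cluster of chromosome 17 had 17 tested rows, forms of 3 precursors. Of these rows, 15 were below 0 (median -0.22), against 277 of 523 rows in all. Another count, of rows called, was 3 lower, against 5.74% of all rows: miR-27b-5p, described above, miR-27b-3p (-0.23, SE 0.05) and miR-24-1-3p (-0.25, SE 0.05). The paralogous cluster on chromosome 19 had 4 of 9 rows above 0. There the shared miR-24 row was the only call, miR-27a-3p was 0.12 (SE 0.09) and miR-23a-3p 0.11 (SE 0.08). The miR-24-3p rows of the 2 loci hold the same values, so the loci cannot be told apart. In the miR-374b and miR-421 cluster of chromosome X all 6 rows were below 0 (median -0.35) and 3 fell, miR-374-3p (-0.49), miR-374-5p (-0.41) and miR-421-3p (-0.32). Without iAs replicate 3, 1 row was called in each of the chromosome 17 and X clusters, and in a fit of the iAs and untreated libraries alone the chromosome X cluster had 0 calls.

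Clusters with rises had fewer calls. All 8 rows of the miR-29a and miR-29b-1 cluster of chromosome 4, forms of 2 precursors, were above 0 (median 0.33) and 2 rose. Of all 523 rows, 246 were above 0 and 2.68% were called higher. The miR-132 and miR-212 cluster of chromosome 10 is known to be driven by CREB in stimulated beta cells and neurons. Its 7 rows, forms of 2 precursors, were all above 0 (median 0.26). Of these, miR-212-3p was called, from 136, 138 and 168 to 188, 180.1 and 176 RPMMM (0.30, SE 0.09), and miR-132-3p, which has the same seed (AACAGUC), was not (1458, 1545 and 1899.5 against 2122, 1766 and 1977 RPMMM, 0.26, SE 0.10). This cluster had 4 calls without untreated replicate 3, 2 without iAs replicate 2, and 0 without any 1 of the other 10 libraries. In the miR-141 and miR-200c cluster, known to restrain the mesenchymal factors Zeb1 and Zeb2, miR-141-5p (0.34) and miR-200c-3p (+2) (0.35) rose out of 10 rows, with 0 calls left without Cd replicate 2 or 3, Mn replicate 2, untreated replicate 2 or any 1 of the iAs replicates. The abundant miR-200c-3p was 13918, 15333 and 15865 against 17505, 16809 and 17126 RPMMM and missed the threshold (0.19, SE 0.06, adjusted p = 0.068 in limma).

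The arms of a precursor were not always on the same side of 0. Of 18 called rows at the annotated start whose other arm was tested, 11 had the other arm on the same side of 0 and 7 on the other side. For 6 the other arm was called too. These 6 are both arms of miR-374, miR-27b and let-7e, each counted from either side, and the shared miR-24-3p values count at both loci. Among the 7, only let-7e had its other arm called, and miR-24-1-5p, for example, was 0.04 (SE 0.10). The same count over all tested arm pairs is not given here. let-7e, clustered with miR-99b and miR-125a on chromosome 1, where 13 of 16 rows were above 0 (median 0.18), showed calls in opposite directions. let-7e-5p rose from 4540.0, 4987 and 6210.0 to 7524, 6253 and 7306 RPMMM (0.43, SE 0.12, limma adjusted p = 0.0453), and let-7e-3p fell from 50.7, 52.97 and 60.4 to 36.1, 44.5 and 43.6 RPMMM (-0.39, SE 0.10, limma adjusted p = 0.0403). For both arms the groups do not overlap, but untreated replicate 3 of the 5p arm lay just below iAs replicate 2. Both calls were lost without untreated replicate 2, iAs replicate 1 or 3, Cd replicate 3 or any of the Mn replicates, and the 5p call also without untreated replicate 1 and the 3p call without untreated replicate 3. For miR-301a the other arm was not called, as miR-301a-3p was 1869, 1572 and 1531 RPMMM in untreated and 1495, 1960.3 and 1572 in iAs libraries (0.01, SE 0.11). For miR-582, miR-582-5p was 0.01 (SE 0.12), and for miR-25, miR-25-5p was 0.13 (SE 0.20).

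Only seeds with a called row were looked at, so each has at least 1 call by that choice. Within several of them the rows lay mostly on 1 side of 0, with few further calls. Of all 523 rows, 246 were above 0 and 277 below, with 2.68% called higher and 5.74% called lower. Of the 12 rows with the let-7 seed GAGGUAG, 10 were above 0 (median 0.23) and let-7e-5p was the only call. Copies of let-7a, let-7c and let-7f give rows of nearly equal values, so the 12 rows are not independent. let-7a-1-5p, for example, was 15829, 18509.7 and 19544 against 22024, 19022 and 22087 RPMMM (0.23, SE 0.08, adjusted p = 0.0697 in limma). Over all 75 rows of let-7 and miR-98, 9 rows were called higher without iAs replicate 2 and 12 without untreated replicate 3, against 1 with all libraries. The 5 rows with the seed AAAGUGC (miR-17, miR-20b, miR-93 and miR-106b) were all below 0, with miR-93-5p called. The 3 rows with the seed GCAGCAU were below 0 too: miR-107-3p (-0.24) was called, and miR-103-1-3p (-0.17) and miR-103-2-3p (-0.16), rows of nearly equal values, were not. The miR-107-3p call was lost in 18 of 24 settings that gave a value. The 2 miR-103 rows narrowly missed the threshold (adjusted p = 0.0551 and 0.0587 in limma). The seed AUUGCAC of miR-25-3p is shared with miR-92a, miR-92b and miR-363, of which none was called and 2 of 4 rows were above 0.

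The microRNAs best known in beta cells were mostly not called. miR-375-3p was 58128, 60296 and 63986 RPMMM in untreated and 67581, 57690.3 and 61729 in iAs libraries (0.03, SE 0.06), and miR-7a-1-5p was 115953, 117563 and 106277 against 105057, 116314 and 105054 (-0.06, SE 0.06). In both the groups overlap. miR-184, a silencer of Argonaute2 in beta cells, was 34.8, 45.9 and 39.4 against 54.8, 51.1 and 48.0 RPMMM (0.36, SE 0.11, adjusted p = 0.0511 in limma) and narrowly missed the threshold, as did miR-9a-1-5p (-0.24, SE 0.07, adjusted p = 0.0511 in limma). Of 93 tested rows of the beta cell and islet list, 2 rose and 2 fell, with a median of -0.06, against 2.68% and 5.74% of all rows and a median of -0.02. These were miR-24-1-3p and miR-24-2-3p, and miR-141-5p and miR-200c-3p (+2), all described above. Without iAs replicate 3 the list had 0 calls, and without iAs replicate 2 or untreated replicate 3 it had 6 or 7 rows lower. miR-21-5p (-0.17), miR-34a-5p (0.15), miR-182 (-0.06), miR-183-5p (0.01), miR-192-5p (-0.11) and miR-204-5p (-0.02) were not called, with standard errors from 0.05 to 0.14. No row was called among 12 rows of p53-regulated microRNAs (median -0.07), 16 of the miR-15, miR-16, miR-195 and miR-497 seed family (-0.03), 21 of the miR-30 family (-0.12), 6 of the miR-181 family (-0.11) and 10 of the miR-183, miR-96 and miR-182 cluster (0.01). At an unadjusted p under 0.05 in limma these lists had 1, 2, 5, 1 and 0 rows, against 29.3% of all rows. Without untreated replicate 3 the p53 and miR-181 lists had 1 row lower each, and without iAs replicate 2 the miR-30 list had 2. The miR-30 list also had 1 row lower after quantile normalization, and the miR-181 list 1 among unshifted rows or at a mean of at least 50 RPMMM.

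The other 3 called rows also fell. miR-221-3p, which represses the cell cycle inhibitor Cdkn1b, fell by 0.37 in log2, miR-3068-3p (+2) by 0.40 and miR-128-1-3p by 0.18. These calls were lost in 17 of 23, 13 of 22 and 20 of 24 settings that gave a value.

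The Cd and Mn libraries show which of these differences also separated iAs from the other metals at the doses used, which differ between metals. The tests of iAs against Cd and against Mn share the iAs libraries with the comparison above, so they are not independent of it. Over all rows, iAs differed from Cd in 15 rows (2.87%) and from Mn in 89 (17.0%). Among the 44 rows, iAs differed from Cd in 9 and from Mn in 28, each time in the same direction as from untreated cells, and 9 rows differed from both. These 9 were miR-146a-5p, which was higher, and 8 lower rows: miR-409a-3p (-1), miR-410-3p, miR-541-5p, miR-382-5p, miR-708-5p, miR-378a-3p, miR-27b-5p and miR-421-3p. miR-541-5p, for example, was 61.5, 48.7 and 62.4 RPMMM in Cd and 46.7, 49.1 and 56.8 in Mn libraries, each above every iAs library, and iAs minus Cd was -0.995 and iAs minus Mn -0.82 (SE 0.11 for both). miR-146a-5p was 15.6, 18.9 and 17.9 RPMMM in Cd and 12.4, 12.7 and 14.8 in Mn libraries, each below every iAs library (0.70 and 1.07). The count against Cd was 6 and 5 without Cd replicates 2 and 3, 8 and 5 without iAs replicates 1 and 3, 8 without untreated replicate 2 and 9 without Mn replicate 2, and that against Mn was 54 and 55 without Mn replicates 1 and 3.

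**Figure D4:**
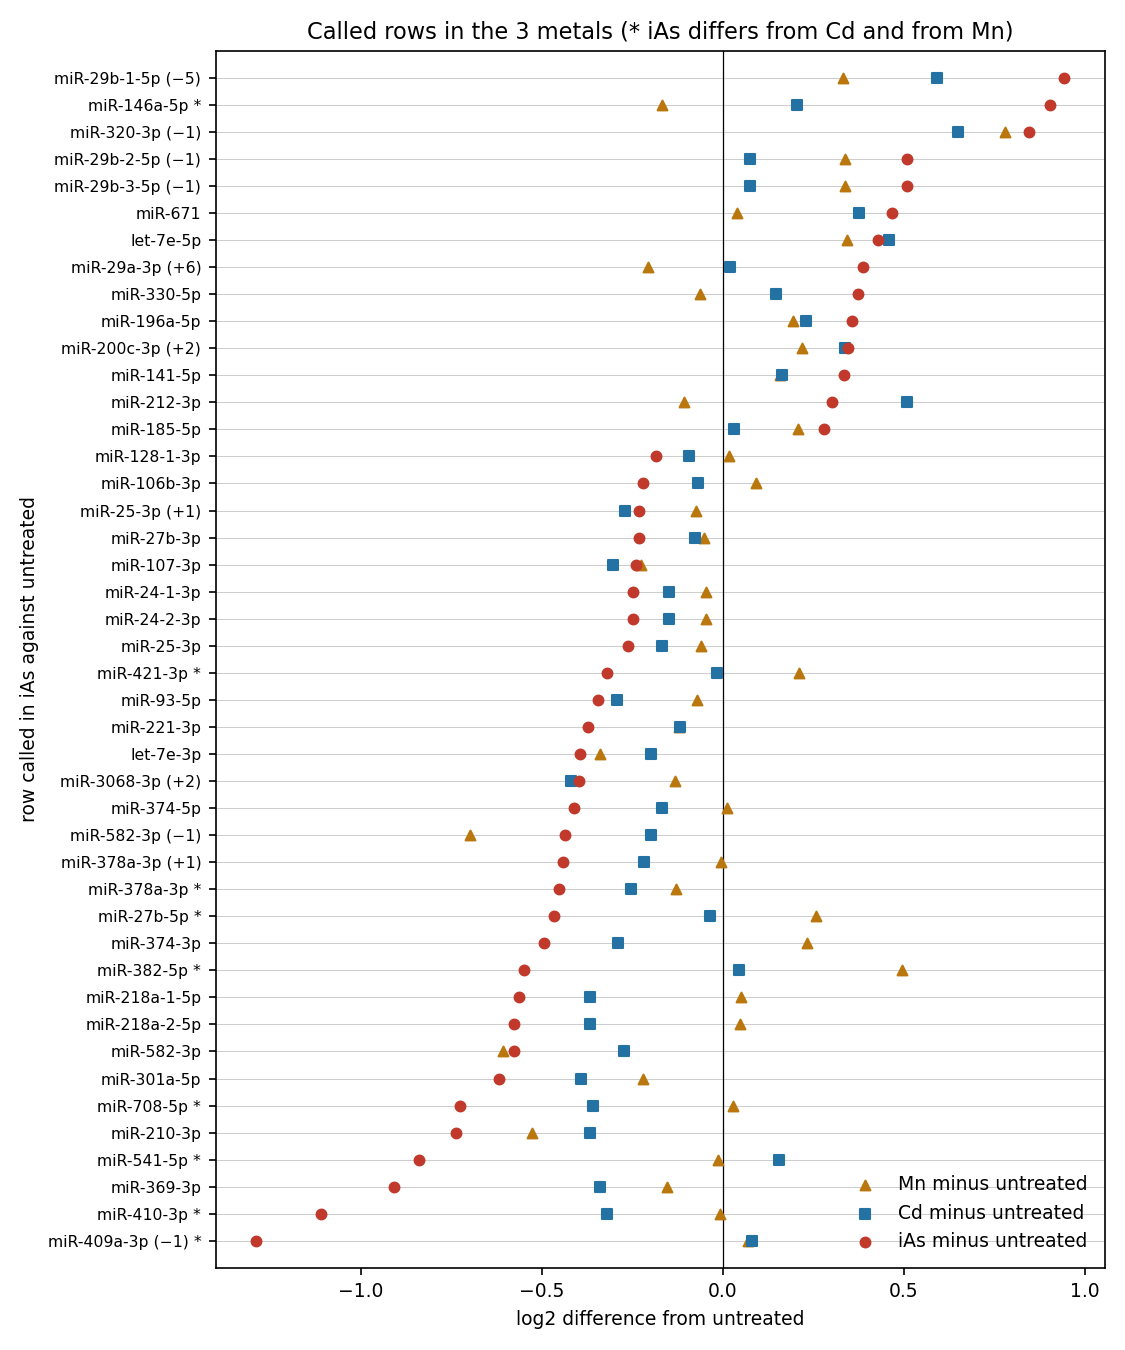
Log2 difference from untreated cells (horizontal) in iAs (circles), Cd (squares) and Mn (triangles) for the 44 rows called in iAs against untreated (vertical); an asterisk marks the 9 rows in which iAs differed both from Cd and from Mn. The comparisons share the 3 untreated libraries. miR-210-3p and miR-582-3p lie below 0 with each metal, whereas miR-541-5p and miR-409a-3p (-1) lie near or above 0 with Cd and Mn. The Dlk1-Dio3 rows miR-410-3p (-0.32) and miR-369-3p (-0.34) lie below 0 with Cd.

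Other rows had values on the same side with the other metals. Against the same untreated libraries, 55 of all rows (10.5%) were called with Cd and 39 (7.46%) with Mn. The dependence of these counts on single libraries was not tested here. Of the 44 rows, 15 were called with Cd, all in the direction seen with iAs, and 5 with Mn, 3 of them in that direction. These counts share the untreated libraries with the contrast that chose the 44 rows, so they are not independent of it. miR-210-3p was 471, 447 and 424 RPMMM in Cd and 412, 385 and 403 in Mn libraries, which gives -0.37 and -0.53 from untreated cells, and iAs was not distinguished from either (iAs minus Cd -0.37, iAs minus Mn -0.21, SE 0.13). miR-582-3p was -0.61 with Mn (iAs minus Mn 0.03, SE 0.11). Of the Dlk1-Dio3 rows, miR-410-3p was -0.32 and miR-369-3p -0.34 with Cd (SE 0.16 for both), neither called. For miR-369-3p iAs minus Cd was -0.57 (SE 0.16) and not called. let-7e-5p was 0.46 with Cd and 0.34 with Mn, and miR-212-3p was 0.51 with Cd and -0.11 with Mn. miR-320-3p (-1) was 0.65 and 0.78, neither called. The 2 rows called with Mn in the other direction were miR-382-5p (0.50) and miR-27b-5p (0.26). The median over the 44 rows was -0.29 with iAs, the contrast that chose them, -0.10 with Cd and -0.01 with Mn.

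Host gene mRNAs were read in the separate mRNA libraries, whose Hmox1 values go against their labels, and no test was made on them. Mcm7, host of miR-25, miR-93 and miR-106b, was at 5703 to 7000 normalized counts in the 4 libraries labelled untreated and 11575 to 13930 in the 5 labelled iAs. Tenm4, host of miR-708, was at 77.5 to 131 and 138 to 173. Chpf2, host of miR-671, was at 6615 to 7711 and 4146 to 4961. Pank1, host of miR-107, was at 456 to 494 and 341 to 478, ranges that overlap. If the mRNA labels were exchanged, each of these directions would turn, and the microRNAs were measured in other libraries, so the directions of host genes and microRNAs were not compared.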

How the data were processed

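Small RNA was quantified by the authors with miRquant in RPMMM, an RPM unit whose deposited columns each sum to about 1000000 over the microRNA rows, per the labels and the file. The mRNA values, used for description only, are a signal the authors made by dividing read counts by DESeq2 normalization factors, per the labels of the deposited table. Tools named in the submitters' processing notes are Salmon, STAR and DESeq2, and the build is rn6, with neither roles nor versions. Low RPMMM values were spaced by 0.126 to 0.169, but only 24.4% to 36.1% of the distinct values below 5 RPMMM were whole multiples of that step within 0.0075, so whole reads were not recovered and no count test was run.

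Columns were matched to samples by their labels, with 0 left unmatched. For 4 of the 9 mRNA columns the title gives the code of another library of the same group, and the description was followed, which moves no value between groups. The 523 of 1186 rows that averaged 10 RPMMM or more over the 12 small RNA libraries were tested with limma 3.58.1 (limma-trend, R 4.3.3) on log2(RPMMM + 1), in 1 fit of 4 groups with no replicate block. A log2 difference is on this scale, which damps changes of low rows. P-values are two-sided and adjusted by Benjamini-Hochberg over the 523 rows, with a threshold of 0.05. An exact permutation test of 3 against 3 libraries cannot go below 0.10. Named rows were the called rows over 1.5-fold, the 12 smallest adjusted p in each direction, called list members, a fixed set of beta cell and stress microRNAs, other arms, forms and seed partners of these, and the remaining calls by name. The members, lists and alternatives were chosen with earlier results of these data known. Sequences and positions are from RefSeq (GRCr8), matched by microRNA name, and figures were drawn with matplotlib 3.10.9.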

Additional observations from a re-analysis of the deposited data

How the results depend on the processing

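The 44 calls of iAs against untreated became 25 (7 higher, 18 lower) in a fit of those 2 groups alone and ranged from 21 to 81 (3 to 37 higher, 18 to 57 lower) when 1 library was left out. Rows higher were 7 without a filter on low values and 24 after median-of-ratios rescaling, which moved the median of all rows from -0.02 to 0.01. Calls of iAs against Cd, 15 in the main analysis, were 8 in the fit of 2 groups, 3 at a mean of at least 50 RPMMM, 9 after rescaling, and 5 to 18 with 1 library left out. Those of iAs against Mn, 89, were 52 at a mean of at least 50 RPMMM and 54 to 102 with 1 library left out. Leaving out a library leaves 2 in its group. With the replicate number as a replicate block, 32 rows were called (8 higher, 24 lower), 8 against Cd and 75 against Mn. The settings not named here kept the 3 total counts within 1.5 times. Same-numbered untreated and iAs libraries deviated from their group means with correlations of -0.55, -0.14 and 0.13 across the 523 rows. The numbers are therefore not taken to pair them. Differently numbered ones reached 0.54 (untreated 1 with iAs 2), 0.53 (untreated 3 with iAs 1) and -0.53 (untreated 3 with iAs 2). Same-numbered iAs and Cd libraries gave 0.37, 0.46 and 0.18. Deviations were thus partly shared between libraries of different groups. The causes of these correlations and of the shifts in counts were not tested. With 3 libraries a group and a median standard error of 0.12, changes under 1.2-fold were mostly below what the fit can call, and rows under 10 RPMMM were not tested.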

Other observations

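Among the 663 rows under the filter, few were above 0 in each library of 1 and at 0 in each library of the other of the untreated and iAs groups. miR-23b-5p (-1) was at 0 in each untreated library and at 2.02, 1.52 and 2.39 RPMMM in the iAs libraries. In the other direction, 5 rows were at 0 in each iAs library and above 0 in each untreated one. They were miR-362-5p (3.16, 1.46 and 1.84 RPMMM in untreated cells, and at 0 in the Cd and Mn libraries as well), miR-30a-3p (+2) (2.06, 1.46 and 1.55) and 3 rows of miR-9a-5p (+2) that hold the same values (2.41, 1.60 and 1.46). All these rows but miR-362-5p were above 0 in some Cd or Mn libraries. miR-23b-5p (-1), for example, was at 1.43 and 1.95 RPMMM in Cd replicates 2 and 3 and at 1.92 in Mn replicate 3. The levels of these rows lie close to the lowest value listed above 0, which is roughly estimated at about 10 reads, and no fold is given.

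The GC content of the called forms was close to that of all rows. Its median was 45.5% over 471 tested rows with a sequence, 48.7% over 12 rows called higher and 47.6% over 30 called lower, a description with no test.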
